A study of Mus musculus with 18 samples.

Results

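Lysosomal genes and their regulators were followed in the descending aorta of a mouse model of Hutchinson–Gilford Progeria Syndrome (HGPS), a disease of premature aging. The set was chosen by gene name and holds 33 of the 54281 genes in the count table: 9 cathepsins, 8 other hydrolases, prosaposin and progranulin, 7 membrane and transport proteins, 4 subunits of the vacuolar proton pump and the 3 transcription factors Tfeb, Tfe3 and Mitf. Each was found by the Ensembl identifier of its symbol, and 32 had enough counts to be tested. The exception was Atp6v0d2, a proton pump subunit known from osteoclasts and dendritic cells, with 77 counts in all 18 mice together.

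The 18 mice were male and on the C57BL/6 background, with 6 in each group. HGPS mice (genotype LMNAG609G, 64 to 75 d old) carry a knock-in at the endogenous gene, so that every cell type that makes lamin A also makes progerin, its truncated form. The controls were WT mice at 2 mo, of which 5 were 62 d old and 1 was 95 d old, and WT mice at 24 mo, which were 609 to 762 d old. Each sample was the whole descending aorta of a mouse, with intima, media and adventitia together. Estimated counts per mouse totalled 12413229 to 21016752 in 2-mo WT, 17838351 to 30844775 in HGPS and 13622602 to 19871697 in 24-mo WT. Counts of Lmna itself do not show the mutant allele and so do not check the labels. Normalized levels are given as CPM, counts scaled to the same library size, and no sample was left out of any value.

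Lysosomes are acidic organelles in which hydrolases break down protein, lipid, glycan and glycogen delivered by endocytosis, phagocytosis and autophagy. Cathepsins are their main proteases, and several can also leave the cell and cut elastin and collagen, which matters in an artery wall. Many lysosomal genes carry a CACGTG-type E-box near the start site, called the CLEAR element, to which the MiT/TFE factors TFEB, TFE3 and MITF bind. The kinase complex mTORC1 keeps these factors in the cytoplasm of fed cells by phosphorylation, so their mRNA level does not give their activity.

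E-boxes of this kind were looked for in the RefSeq promoter windows of the genes (GRCm38.p6, 250 bases before to 50 bases after the start site), which were at hand for 27 of the 33 genes. The letters CACGTG read the same on both strands. They stood in a window of 10 of the 27 genes (37%), against 8.09% of 27025 genes with a window and 11.3% of the 10909 such genes that were tested. The longer TCACGTGA, which contains CACGTG, stood in 5 of the 27 (18.5%), against 1.12% and 2.04%. The sites below are shown because they belong to the 7 genes with the motif that rose or fell in HGPS, and to the lysosomal calcium channel gene Mcoln1, which did not pass. Each is 30 bases of the gene's own strand with the CACGTG in capitals.
Ctsd, chr7:142387908-142387937, minus strand: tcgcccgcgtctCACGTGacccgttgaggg
Ctsl, chr13:64370739-64370768, minus strand: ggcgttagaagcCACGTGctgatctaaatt
Lamp1, chr8:13159088-13159117, plus strand: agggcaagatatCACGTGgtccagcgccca
Glb1, chr9:114401018-114401047, plus strand: ctgcttctgagtCACGTGgcctacagaggc
Gaa, chr11:119267811-119267840, plus strand: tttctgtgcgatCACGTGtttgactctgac
Ctsf, chr19:4855074-4855103, plus strand: caccccgtggtcCACGTGcctcgcgtaaat
Atp6v1a, chr16:44139373-44139402, minus strand: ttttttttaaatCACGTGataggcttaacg
Mcoln1, chr8:3500462-3500491, plus strand: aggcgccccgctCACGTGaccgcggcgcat
The Lamp1 site is 1 of 4 in its window, and the Ctsd and Mcoln1 sites are each 1 of 2. Counted from the RefSeq start site, the first C lies at -98 in Ctsd, -236 in Ctsl, -61 in Lamp1 and -48 in Glb1. It lies at -140 in Gaa, -79 in Ctsf, -131 in Atp6v1a and -45 in Mcoln1. The annotated gene spans of Ctsd, Ctsl, Atp6v1a and Mcoln1 start further upstream and include the site shown. For 23 of the 27 genes, the 30 bases after the start site of the first window were found in a transcript of the gene. The windows of Ctss, Ctsk, Tfeb, Tfe3 and Mitf did not hold these letters. A match is a match of letters and was not tested for binding.

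The lysosomal genes spanned a wide range of levels. Per kilobase of transcript, the mean level in 2-mo WT was highest for Psap, the precursor of the saposins that help break down sphingolipids (578 CPM per kb), followed by Ctsd (407), the membrane glycoprotein gene Lamp1 (322) and Ctsl (240). The lowest of the tested genes were Tfe3 (7.73 CPM per kb), Tfeb (7.49), Mitf (7.29) and Mcoln1 (6.23), and Atp6v0d2 was at 0.0507. Ctss stood in place 26 of 33 in 2-mo WT, place 16 in HGPS and place 23 in 24-mo WT on this scale. It also had the largest spread between mice of any tested gene of the set, with an SD of 21.7% of the mean in 2-mo WT, 30.0% in HGPS and 45.9% in 24-mo WT. The next largest was that of Ctsh in 24-mo WT, at 22.4%. Neighbours in this order were not tested against each other.

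**Figure D1:**
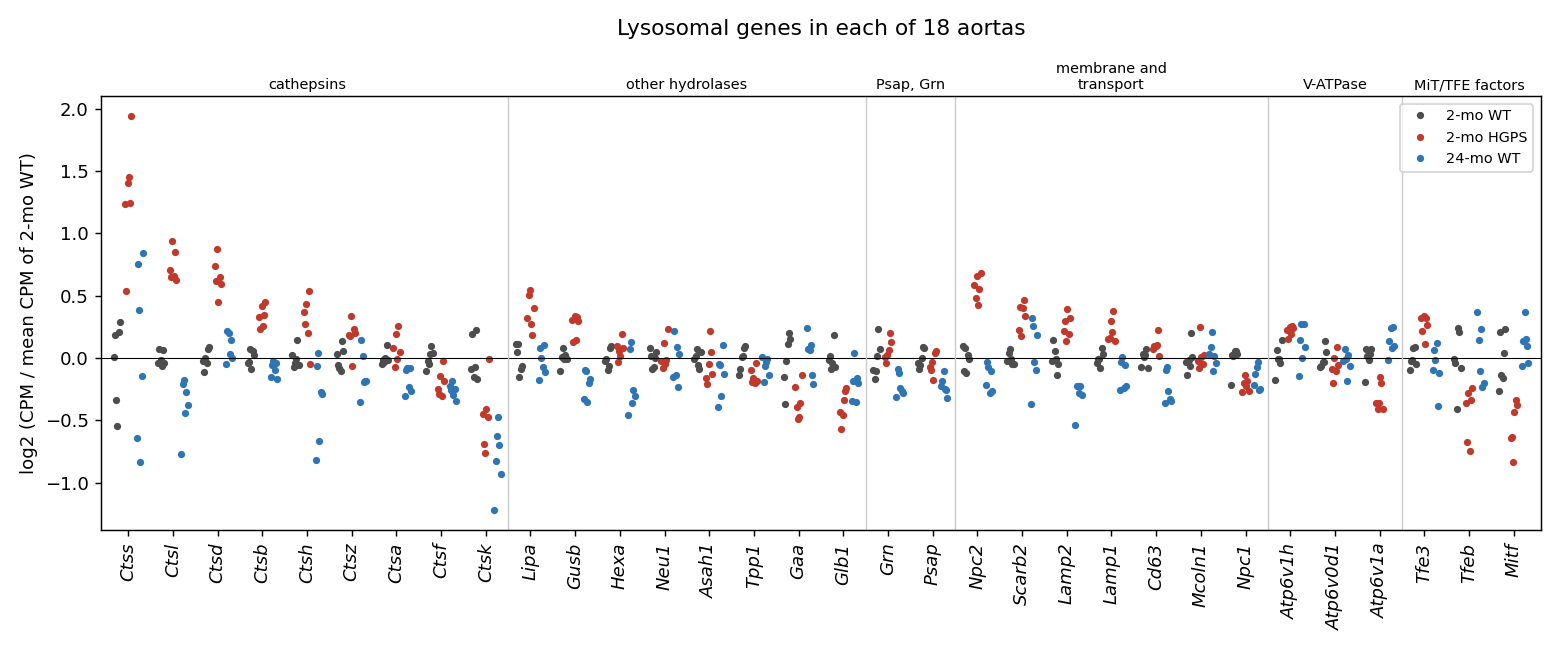
Level of each of the 32 tested lysosomal genes in each of the 18 aortas, as log2 of its CPM over the mean CPM of 2-mo WT, by role. Points are single mice (6 per group), and the HGPS points lie highest for Ctss, Ctsl, Ctsd and Npc2 and below 2-mo WT for Mitf and Glb1.

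The first comparison asked how the aorta of HGPS mice differs from that of WT mice of about the same age. Lysosomal genes moved both ways. Of the 32 tested, 13 were higher in HGPS and 9 were lower at an adjusted p under 0.05 (edgeR, adjusted over all 15210 genes tested), and 10 did not pass. Over all genes tested the shares at that threshold were 22% higher and 21.2% lower, so this comparison called much of the transcriptome. At the study's own cut-offs of 1.5-fold and an adjusted p under 0.001, 3 were higher (Ctss, Ctsl and Ctsd), and those cut-offs called 5.27% of all genes as higher. None was lower, where the cut-offs called 4.23% of all genes. DESeq2 gave the same 3 and 0, and in edgeR 9 were lower at an unadjusted p under 0.05. The 6 HGPS mice lay wholly above the 6 2-mo WT mice for 11 of the 32 and wholly below for 2, where 11% and 10.9% of all genes did. The median log2 difference of the 32 was 0.08, beside 0.0026 over all genes, and the range was -0.53 to 1.35. Summed over the 33 genes, the level was 7654 ± 239 CPM in 2-mo WT and 9068 ± 381 CPM in HGPS (mean ± SD, n = 6 each).

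Cathepsins made up the top of this range, and 5 of 9 rose (55.6%) and 2 fell (22.2%), beside 22% and 21.2% of all genes. Ctss (ENSMUSG00000038642, chr3:95526786-95556403, plus strand) encodes cathepsin S, a cysteine protease typical of antigen-presenting cells that stays active at neutral pH and cuts elastin. Its level was 17.8, 27.8 and 31.7 CPM at the lowest, median and highest mouse of 2-mo WT, and 37.7, 65.1 and 99.5 CPM in HGPS. No HGPS mouse was as low as any 2-mo WT mouse, although the HGPS mice themselves differed widely. The difference was 2.56-fold (log2 1.35, SE 0.26, adjusted p = 0.000432). Ctss stayed under an adjusted p of 0.05 without any single mouse (log2 1.21 to 1.48), but no longer met the 0.001 cut-off without HGPS mouse 3 or 6 or 2-mo WT mouse 1, 3 or 4 (edgeR adjusted p = 0.00107 to 0.00153).

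Ctsl (ENSMUSG00000021477, chr13:64359337-64370890, minus strand) encodes cathepsin L, a cysteine endopeptidase found in most cells. The 2-mo WT mice lay close together at 453, 464 and 498 CPM, and the HGPS mice at 727, 760 and 906 CPM. The groups did not overlap, and Ctsl rose 1.67-fold (log2 0.74, SE 0.09, adjusted p = 2.44e-06).

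Ctsd (ENSMUSG00000007891, chr7:142375911-142388038, minus strand) encodes cathepsin D, the main aspartic protease of the lysosome. It went from 802, 859 and 922 CPM in 2-mo WT to 1184, 1342 and 1592 CPM in HGPS, again without overlap. The rise was 1.58-fold (log2 0.66, SE 0.07, adjusted p = 1.08e-06). With these values Ctsd took the first place of the set per kilobase in HGPS (644 CPM per kb), ahead of Psap (561).

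Of the other 6 cathepsins, Ctsb, a cysteine protease with exopeptidase action, rose 1.27-fold with no overlap (858 ± 36.2 CPM in 2-mo WT, 1087 ± 64.8 in HGPS). Ctsh, an aminopeptidase, rose 1.24-fold, but its adjusted p of 0.04998 lay at the threshold. Without any 1 of HGPS mice 1 to 5, 2-mo WT mice 1 to 6 or 24-mo WT mice 5 and 6 it did not pass (log2 0.25 to 0.33). Ctsk and Ctsf fell. Ctsk (ENSMUSG00000028111, chr3:95499256-95509362, plus strand) encodes cathepsin K, the collagen-cutting protease best known from osteoclasts. Its level was 51.2, 54.3 and 67.1 CPM in 2-mo WT and 33.8, 41.7 and 56.9 CPM in HGPS. The groups overlapped through 1 HGPS mouse, and the log2 difference was -0.44 (SE 0.13, adjusted p = 0.00763). Ctsf, a cysteine protease, changed by -0.19. Ctsz, a carboxypeptidase, and Ctsa, the protective partner of β-galactosidase and sialidase, did not pass (0.18 and 0.09), and Ctsz passed without HGPS mouse 4 (0.22).

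**Figure D2:**
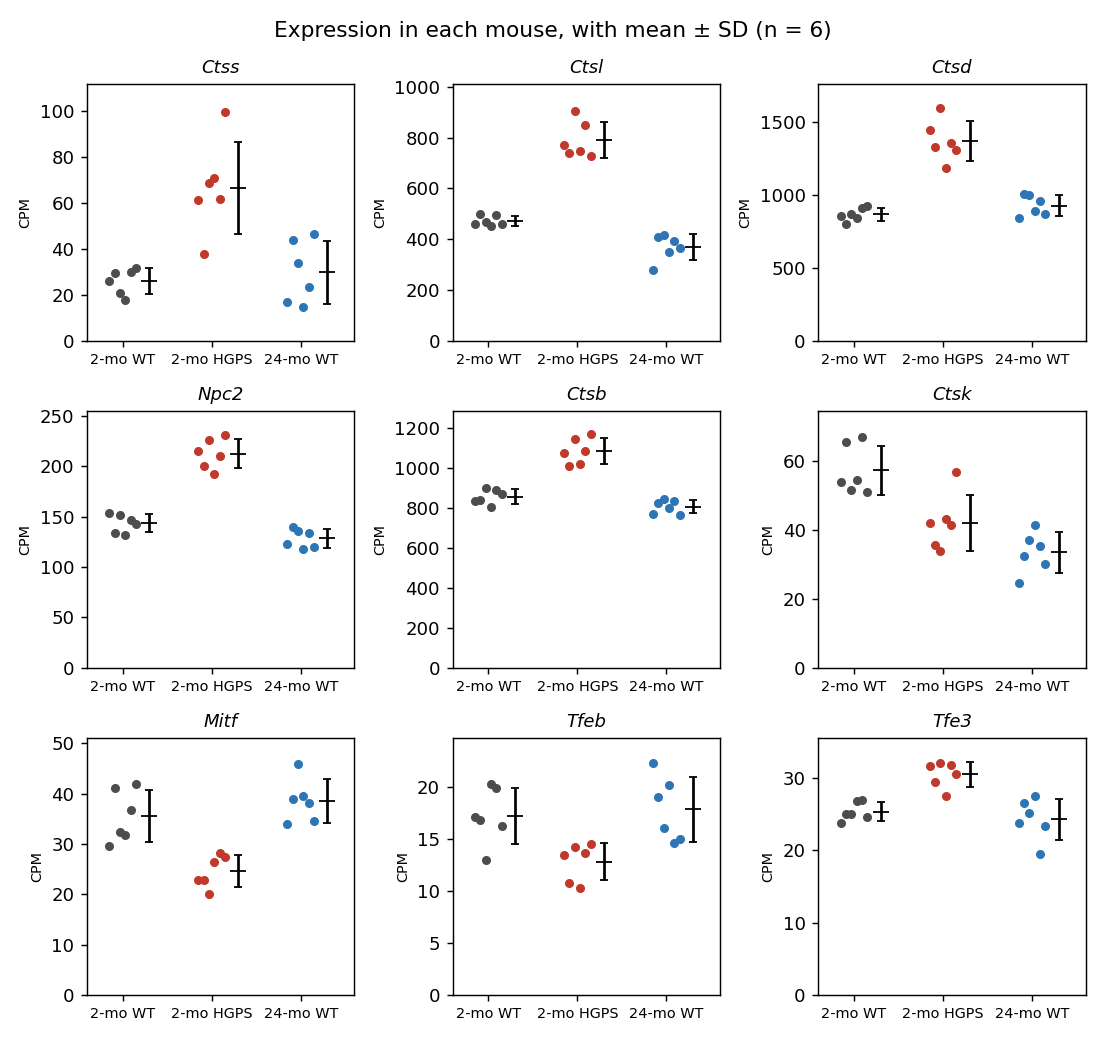
CPM of 9 lysosomal genes in each mouse of the 3 groups, with the mean ± SD (n = 6) beside the points and each axis starting at 0. HGPS mice do not overlap 2-mo WT for Ctss, Ctsl, Ctsd, Npc2, Ctsb, Mitf and Tfe3, and Ctsk was lowest on average in 24-mo WT.

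Of the 8 other hydrolases 2 rose (25%) and 3 fell (37.5%), beside 22% and 21.2% of all genes. Lipa, the acid lipase that frees cholesterol from cholesteryl esters, rose 1.30-fold (58.9 ± 4.56 to 76.6 ± 7.37 CPM). Gusb, the β-glucuronidase of glycosaminoglycan breakdown, rose 1.20-fold, and neither overlapped 2-mo WT. Glb1, the β-galactosidase whose activity is used as a stain for senescent cells, fell to 36.0 ± 3.13 CPM from 46.8 ± 3.34 (log2 -0.38, adjusted p = 0.000437), and no HGPS mouse reached the 2-mo WT range. Glb1 overlaps Tmppe on the same strand (79 to 179 counts per mouse), so the split of reads between them is uncertain. Gaa, the acid glucosidase that degrades glycogen, fell by 0.34 on the log2 scale and Tpp1, a tripeptidyl peptidase, by 0.14. The Tpp1 call was lost without any 1 of HGPS mice 2, 3, 4 and 6 or 2-mo WT mice 3 to 6 (-0.15 to -0.13). Hexa, Neu1 and Asah1, which act on gangliosides, sialic acids and ceramide, did not pass (log2 0.07, 0.04 and -0.04).

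Psap and Grn did not pass either. Psap was at 1536 ± 78.2 CPM in 2-mo WT and 1491 ± 91.7 in HGPS, and Grn, which encodes progranulin, a growth factor cleaved into granulins in the lysosome, at 250 ± 26.2 and 262 ± 15.9.

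Of the 7 membrane and transport genes 4 rose (57.1%) and 1 fell (14.3%), beside 22% and 21.2% of all genes. Npc2, the soluble protein that picks up cholesterol in the lysosome lumen, rose 1.48-fold without overlap (143 ± 8.87 to 212 ± 14.5 CPM, log2 0.57, adjusted p = 1.57e-06), just under the 1.5-fold cut-off, which it passed without HGPS mouse 4 or 2-mo WT mouse 1 (both 0.59). Its partner Npc1, the membrane protein that receives the cholesterol, fell by 0.21 on the log2 scale (71.0 ± 4.85 to 61.2 ± 2.14 CPM, adjusted p = 0.0053). Scarb2, a lysosomal membrane protein that also acts as a sorting receptor, rose by 0.34, and the membrane glycoprotein genes Lamp2 and Lamp1 by 0.26 and 0.23. The tetraspanin gene Cd63 and Mcoln1 did not pass (0.10 and 0.03).

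The subunits of the proton pump did not move as 1 unit. Atp6v1h, a regulatory subunit of the catalytic part, rose by 0.22 and Atp6v1a, the catalytic subunit, fell by 0.31 (234 ± 15.4 to 188 ± 14.9 CPM, adjusted p = 0.00087). Atp6v0d1 of the membrane part was at 74.7 ± 4.30 and 71.8 ± 4.91 CPM and did not pass.

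The 3 MiT/TFE factor genes all passed, in opposite directions. Mitf (ENSMUSG00000035158, chr6:97807052-98021349, plus strand) was at 29.6, 34.5 and 41.9 CPM in 2-mo WT and at 19.95, 24.6 and 28.2 CPM in HGPS. Its groups did not overlap, and the log2 difference was -0.53 (SE 0.10, adjusted p = 0.000433). Tfeb (ENSMUSG00000023990, chr17:47737030-47792419, plus strand) was at 12.9, 16.9 and 20.3 CPM in 2-mo WT and at 10.3, 13.5 and 14.5 CPM in HGPS. The lowest 2-mo WT mouse lay within the HGPS range, and the difference was -0.43 (SE 0.13, adjusted p = 0.0103). Tfe3 (ENSMUSG00000000134, chrX:7762560-7775202, plus strand) was at 23.73, 25.004 and 26.95 CPM in 2-mo WT and at 27.5, 31.1 and 32.1 CPM in HGPS. All HGPS mice were above, by 0.27 (SE 0.07, adjusted p = 0.00626). The E-box letters stood in 3 of 10 genes with a window that rose in HGPS (30%), 4 of 8 that fell (50%) and 3 of 9 that did not pass (33.3%).

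Markers of other cell types also differed between HGPS and 2-mo WT. Of 14 macrophage markers, 12 were higher in HGPS than in 2-mo WT (85.7%, beside 22% of all genes) and 0 were lower. The 14 summed to 624 to 892 CPM in 2-mo WT, 1064 to 1679 CPM in HGPS and 588 to 1161 CPM in 24-mo WT. None of the 14 was at 0. Of 6 markers of lipid-laden macrophages 5 rose, with Spp1 at log2 5.12, Lgals3 at 1.64 and Trem2 at 1.44, and Gpnmb fell by 0.32. The 6 summed to 495 to 567 CPM in 2-mo WT, 606 to 795 CPM in HGPS and 390 to 530 CPM in 24-mo WT. None was at 0. Cd9 made up most of that sum (mean 481 CPM in 2-mo WT, 582 CPM in HGPS and 411 CPM in 24-mo WT). The mean log2 CPM of the 6 was 3.38 to 3.60 in 2-mo WT, 4.72 to 5.27 in HGPS and 3.59 to 4.16 in 24-mo WT. The 5 tested genes whose log2 CPM followed Ctss most closely over the 18 mice were Lyz2 (Pearson r = 0.969), Adgre1 (0.966), Fcgr3 (0.966), C1qb (0.96) and Cd300ld (0.957), a description over mice that include the 3 groups. In whole tissue, a change in the number of cells of a type and a change in RNA per cell cannot be told apart.

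A fit with the mean log2 CPM of the macrophage markers as a covariate was run beside the main one. The score was 4.52 to 5.06 in 2-mo WT and 5.28 to 5.92 in HGPS, without overlap, and 4.40 to 5.36 in 24-mo WT. Because the score differed between HGPS and 2-mo WT without overlap, the covariate cannot be told apart from the genotype. Which genes pass with it does not settle their source. In this fit 4 of the 32 genes were higher in HGPS than in 2-mo WT and 4 lower, and it called 13.5% of all genes against 43.2% without the covariate. The value of Ctss went to -0.02 (SE 0.18, adjusted p = 0.956) and that of Ctsh to -0.05 (SE 0.17, adjusted p = 0.863). Ctsd stayed past the threshold at 0.53 (SE 0.11), Ctsl at 0.49 (SE 0.12), Npc2 at 0.42 (SE 0.09) and Ctsb at 0.26 (SE 0.08). Glb1 was at -0.61 (SE 0.10), Mitf and Ctsk at -0.66 (SE 0.16 and 0.20) and Atp6v1a at -0.36 (SE 0.11), all 4 past it as well. Tfe3 and Tfeb kept values near those of the main fit (0.25 and -0.39) but with larger errors and did not pass.

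**Figure D3:**
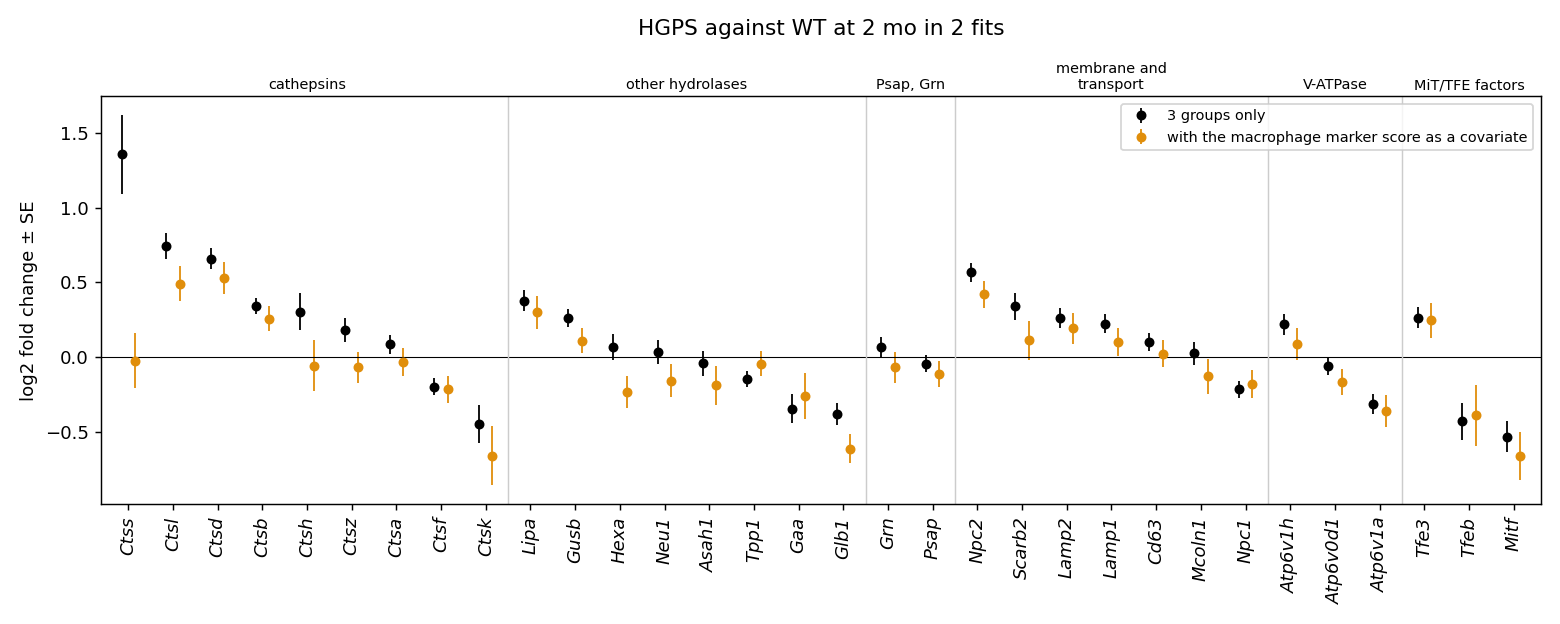
Log2 fold change of the 32 lysosomal genes in HGPS against WT at 2 mo, with bars of ± SE, in the fit of the 3 groups (black) and with the macrophage marker score as a covariate (orange). Ctss goes from 1.35 to -0.02, and Ctsd, Ctsl and Npc2 keep values of 0.42 to 0.53.

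Of 10 smooth muscle markers, 7 were lower in HGPS (summed 21139 to 29301 CPM, against 32103 to 41010 CPM in 2-mo WT) and 4 of 8 fibroblast markers were lower (7367 to 11560 CPM, against 11169 to 14129 CPM). All 9 tested brown fat markers (506 to 1873 CPM, against 111 to 674 CPM) and 7 of 8 white fat markers were higher. Over all genes 22% were higher and 21.2% lower. With the brown fat and skeletal muscle scores as covariates, 12 lysosomal genes were higher and 2 lower, among 21.2% of all genes called. The part of these markers in the lysosomal values was not tested further. Of 8 osteoclast markers 4 were tested, and in HGPS Acp5 rose and Itgb3 and Mmp9 fell. The 8 summed to 203 to 261 CPM in HGPS, 261 to 345 CPM in 2-mo WT and 205 to 359 CPM in 24-mo WT. Itgb3 made up most of that sum (mean 170 CPM in HGPS and 272 CPM in 2-mo WT). The mean log2 CPM of the 4 tested overlapped, at 4.33 to 4.91 in HGPS and 4.31 to 4.82 in 2-mo WT. The 4 others were sparse, with 0 counts of Calcr, 67 of Dcstamp, 36 of Ocstamp and 17 of Oscar over all 18 mice.

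The second comparison asked how the same genes differ between WT mice at 24 mo and at 2 mo. At 24 mo none of the 32 was higher in edgeR's test at an adjusted p under 0.05, where 6.29% of all genes were, and 8 were lower, where 5.38% were. DESeq2 also gave 0 and 8, and at an unadjusted p under 0.05 in edgeR there were 1 higher and 13 lower. At the 1.5-fold and 0.001 cut-offs 0 were higher and 1 was lower (Ctsk), against 1.28% and 0.717% of all genes. The 24-mo mice lay wholly above 2-mo WT for 0 of the 32 and wholly below for 6, where 3.2% and 3.08% of all genes did. The median log2 difference was -0.12, beside 0.0083 over all genes, and the summed level of the 33 genes was 7049 ± 493 CPM (mean ± SD, n = 6).

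Ctsk led these falls. Its level in 24-mo WT was 24.6, 33.9 and 41.4 CPM at the lowest, median and highest mouse, so all lay below the 51.2 to 67.1 CPM of 2-mo WT. The difference was 1.71-fold (log2 -0.77, SE 0.13, adjusted p = 0.000353). The adjusted p of Ctsk was at most 0.00171 in the fits without a covariate, but it passed the 0.001 cut-off no longer without 24-mo WT mouse 2 or 6 or 2-mo WT mouse 2 or 5 (log2 -0.76 to -0.73).

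Ctsl fell to 277, 378 and 417 CPM in 24-mo WT, below all 2-mo WT mice (log2 -0.36, SE 0.08, adjusted p = 0.00789). Lamp2 (-0.29), Ctsf (-0.26) and Psap (-0.22) also had 24-mo WT mice wholly below 2-mo WT. Cd63 (-0.24), Grn (-0.21) and Gusb (-0.21) fell with overlapping groups. The Grn call was lost without any 1 of 24-mo WT mice 1, 4, 5 and 6, 2-mo WT mice 4, 5 and 6 or HGPS mice 1, 2, 3 and 6, which enter through the shared spread (-0.21 to -0.16). The Gusb call was lost without 24-mo WT mouse 1 or 4 or 2-mo WT mouse 3 or 5 (-0.20 to -0.18). Without 24-mo WT mouse 3, Ctsh (-0.40), Hexa (-0.25) and Glb1 (-0.24) passed as well, and without 2-mo WT mouse 1 so did Npc1 (-0.19). Ctsa was wholly below 2-mo WT but did not pass (-0.17, adjusted p = 0.082).

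Ctsd was at 838, 922 and 1005 CPM and Ctss at 14.6, 28.6 and 46.4 CPM in 24-mo WT, and neither passed (log2 0.10 and 0.19). The 24-mo WT mice spread more for Ctss than the 2-mo WT mice, on both sides of them. Tfeb (14.6, 17.5 and 22.3 CPM), Tfe3 (19.4, 24.4 and 27.5 CPM) and Mitf (33.99, 38.6 and 45.98 CPM) all overlapped 2-mo WT and did not pass (0.05, -0.06 and 0.12). Of the 14 macrophage markers 1 was higher and 0 were lower here. With their score as a covariate 12 lysosomal genes were lower and 0 higher, among 13.5% of all genes called against 11.7% without it. Some markers of other cell types also differed at 24 mo. Of 8 fibroblast markers 4 fell, Col1a2 by 0.95, Col1a1 by 0.92, Pi16 by 0.73 and Dpt by 0.70 on the log2 scale, and none rose. Their summed level was 7562 to 10679 CPM in 24-mo WT, wholly below the 11169 to 14129 CPM of 2-mo WT, and none was at 0. Of 4 tested markers of Schwann cells and nerve 3 rose and 1 fell. Among 10 smooth muscle, 8 white fat and 3 tested skeletal muscle markers, 1 each rose (Des 0.45, Lep 2.74 and Ckm 0.83) and 0 fell. Of 6 markers of lipid-laden macrophages 1 rose (Spp1, log2 2.69, edgeR adjusted p = 9.49e-05) and 0 fell. Over all genes 6.29% were higher and 5.38% lower. The part of these markers in the lysosomal values was not tested.

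**Figure D4:**
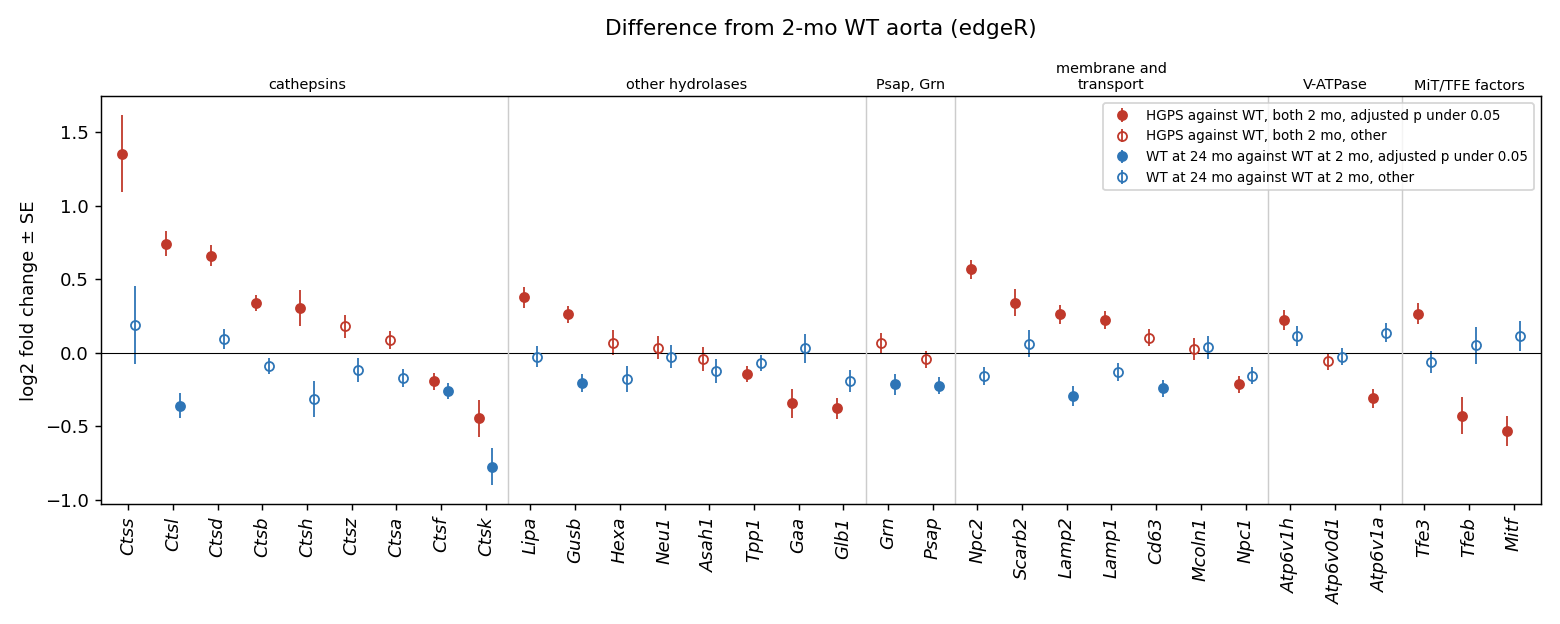
Log2 fold change from 2-mo WT with ± SE for the 32 lysosomal genes in HGPS at 2 mo (red) and WT at 24 mo (blue), both measured against the same 6 2-mo WT mice. Filled points have an adjusted p under 0.05, and no blue point above 0 is filled.

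Both comparisons use the same 2-mo WT mice, so the difference between them was tested directly, as HGPS at 2 mo against WT at 24 mo. HGPS was higher for 19 of the 32 and lower for 5, where 23.8% and 23.6% of all genes were. At the cut-offs 3 were higher (Ctsl, Npc2 and Ctsh) and 1 lower (Mitf), against 6.02% and 6.11% of all genes. DESeq2, the study's own tool, added Ctss to these (log2 1.16, adjusted p = 0.000282), as did edgeR with no count filter or with the replicate block, and Ctsh did not meet them when edgeR was fitted to the 2 groups alone (adjusted p = 0.00293). Ctsh dropped out without HGPS mouse 1, 3 or 5 or 24-mo WT mouse 1, 4 or 5 (log2 0.53 to 0.62), Ctss met them without HGPS mouse 2 or 24-mo WT mouse 2 or 6 (1.29 to 1.34), and Ctsd did so without HGPS mouse 4 or 24-mo WT mouse 3 (0.60 and 0.59). HGPS mice lay wholly above 24-mo WT for 11 and wholly below for 3, where 10.9% and 11.3% of all genes did. The median was 0.27, beside -0.01 over all genes.

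For Ctsl the HGPS and age differences had opposite signs (0.74 and -0.36), and HGPS was 2.15-fold above 24-mo WT (log2 1.10, SE 0.09, adjusted p = 1.19e-08). The same order was seen for Npc2 at 0.73 (adjusted p = 3.66e-08) and Ctsh at 0.62, although for those genes the 24-mo difference from 2-mo WT did not pass. Lamp2, higher in HGPS and lower at 24 mo, differed by 0.55 (adjusted p = 1.93e-06), and Gusb by 0.47. Ctsd differed by 0.57 (adjusted p = 3.41e-06) and Ctss by 1.16 (adjusted p = 0.00121). For Ctss the HGPS and 24-mo WT mice overlapped. The macrophage markers differed in this comparison too, with 12 of 14 higher in HGPS, among them Lyz2 (1.17) and C1qb (1.03), and 1 lower. With their score as a covariate 9 of the 32 lysosomal genes were higher and 3 lower, among 21.4% of all genes called against 47.3% without it. The value of Ctss went to 0.02 (adjusted p = 0.949) and that of Ctsh to 0.32 (adjusted p = 0.154), and Ctsl (0.88), Npc2 (0.60), Lamp2 (0.49) and Ctsd (0.45) stayed past the threshold.

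Of the 9 cathepsins 8 were higher in HGPS than in 24-mo WT (88.9%, beside the 23.8% of all genes), and Ctsf did not pass (0.06). With the macrophage score as a covariate Ctsb (0.35), Ctsd and Ctsl passed, and Ctsa, Ctsh, Ctsk, Ctss and Ctsz did not. Ctsk was lower than 2-mo WT in both groups (-0.44 and -0.77). Between them it was 0.33 higher in HGPS (adjusted p = 0.0376), a call that was lost without any 1 of HGPS mice 1, 4, 5 and 6 or 24-mo WT mice 1, 2 and 6 (0.23 to 0.34). Mitf was 0.65 lower in HGPS than in 24-mo WT (adjusted p = 4.8e-05) and Tfeb 0.48 lower, both without overlap, and Tfe3 was 0.33 higher. Atp6v1a was 0.45 lower without overlap (adjusted p = 1.93e-05). The Glb1 difference of -0.19 did not pass without any 1 of HGPS mice 1, 2 and 3, 24-mo WT mice 2, 3, 5 and 6 or 2-mo WT mouse 4 (-0.19 to -0.13). The Hexa difference of 0.25 did not pass without HGPS mouse 5 or 24-mo WT mouse 1, 4, 5 or 6 (0.19 to 0.23).

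The wider lysosomal pathway was taken from lists of other genes. Of 48 other lysosomal genes 11 were higher in HGPS than in 2-mo WT (22.9%) and 14 lower (29.2%), beside 22% and 21.2% of all genes, with a median log2 difference of 0.0083. The 25 calls became 18 to 28 with 1 mouse left out, 16 with no count filter and 14 with the macrophage score as a covariate. Over all genes 43.2% were called in the main fit, 21% with no count filter and 13.5% with the macrophage score. The largest rises were Acp5, a phosphatase of macrophages and osteoclasts (1.21), Laptm5, a membrane protein of blood cells (1.06), and Fuca1, a fucosidase (0.64). The largest falls were Manba, a mannosidase (-0.71), Laptm4b (-0.52) and Idua, an iduronidase (-0.49). Of 17 other proton pump genes 5 rose (29.4%) and 1 fell (5.88%), and 1 call was left with the macrophage score. Atp6v0a4 led them (1.53) at only 1.1 CPM in HGPS, and Atp6v1b2 rose by 0.44, Atp6v0c by 0.27, while Atp6v0e2 fell by 0.35.

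Of 9 genes that sort hydrolases to the lysosome 2 rose (22.2%) and 3 fell (33.3%) in HGPS against 2-mo WT, near the 22% and 21.2% of all genes. Without HGPS mouse 3 these 5 calls became 3, and with the macrophage score 2, where calls over all genes went from 43.2% to 13.5%. The mannose-6-phosphate receptor gene Igf2r (0.20) and Gnptg, a subunit of the enzyme that makes the tag (0.27), rose. The adaptor gene Gga2 (-0.60), Nagpa, which uncovers the tag (-0.38), and the sorting receptor gene Sort1 (-0.33) fell.

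Of 21 genes around mTORC1 and the MiT/TFE factors 7 rose (33.3%) and 2 fell (9.52%) in HGPS, beside the same 22% and 21.2% of all genes. The 9 calls became 7 to 12 with 1 mouse left out and 3 with the macrophage score. That score took the calls over all genes from 43.2% to 13.5%. Among those that rose were Tfec, the fourth MiT/TFE factor, at a low level (1.05, 1.5 CPM in HGPS), the GTPase gene Rragd (0.63) and Lamtor1, which anchors mTORC1 to the lysosome (0.48). Rragb (-0.57) and the inhibitor gene Tsc1 (-0.22) fell. Of 22 autophagy genes 8 rose (36.4%), led by the cargo receptor gene Sqstm1 (0.42), Atg12 (0.28) and Gabarap (0.25), and Wipi1 fell by 0.25 (4.55%). These 9 calls became 5 without HGPS mouse 5 or 2-mo WT mouse 4, up to 11 without other mice, and 0 in edgeR's test with the macrophage score, where 2 had an unadjusted p under 0.05 (DESeq2, without that score, gave 9). Of 8 inhibitors of cathepsins 3 were tested, and Cstb (0.45) and Cst3 (0.36) rose.

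In WT at 24 mo against 2 mo, where 6.29% of all genes were higher and 5.38% lower, 2 of the 48 other lysosomal genes rose (4.17%: Ids, 0.48, and Ppt1, 0.35) and 8 fell (16.7%), led by Scpep1 (-0.69), Ctsc (-0.45) and Manba (-0.32). None of the 17 proton pump genes passed in edgeR or in DESeq2, and in edgeR 3 had an unadjusted p under 0.05. Fnip2 (-0.43) and Lamtor4 (-0.28) fell among the mTORC1 genes, Atg7 rose by 0.17 and Wipi1 fell by 0.38 among the autophagy genes, and Igf2r rose by 0.21. With 1 mouse left out the calls were 7 to 10 of the other lysosomal genes, 1 to 4 of the mTORC1 genes, 1 to 2 of the autophagy genes and 0 to 2 of the sorting genes. No cathepsin inhibitor passed, in edgeR's test or at an unadjusted p under 0.05.

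HGPS against 24-mo WT gave 15 higher (31.2%) and 10 lower (20.8%) of the 48 other lysosomal genes, beside 23.8% and 23.6% of all genes, among them Acp5 (1.38) and Lgmn, an asparaginyl protease (0.85), and at the other end Ppt1 (-0.80). With the macrophage score those 25 calls became 14, and calls over all genes went from 47.3% to 21.4%. The comparison gave 6 higher (35.3%) and 2 lower (11.8%) of the 17 proton pump genes, 1 (11.1%) and 4 (44.4%) of the 9 sorting genes, 8 (38.1%) and 4 (19%) of the 21 mTORC1 genes and 6 (27.3%) and 4 (18.2%) of the 22 autophagy genes. The 12 mTORC1 calls became 8 without HGPS mouse 5 or 24-mo WT mouse 1. Flcn (0.65) and Lamtor1 (0.63) were the largest rises among the mTORC1 genes, and Cst3 and Cstb rose by 0.54 and 0.53.

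**Figure D5:**
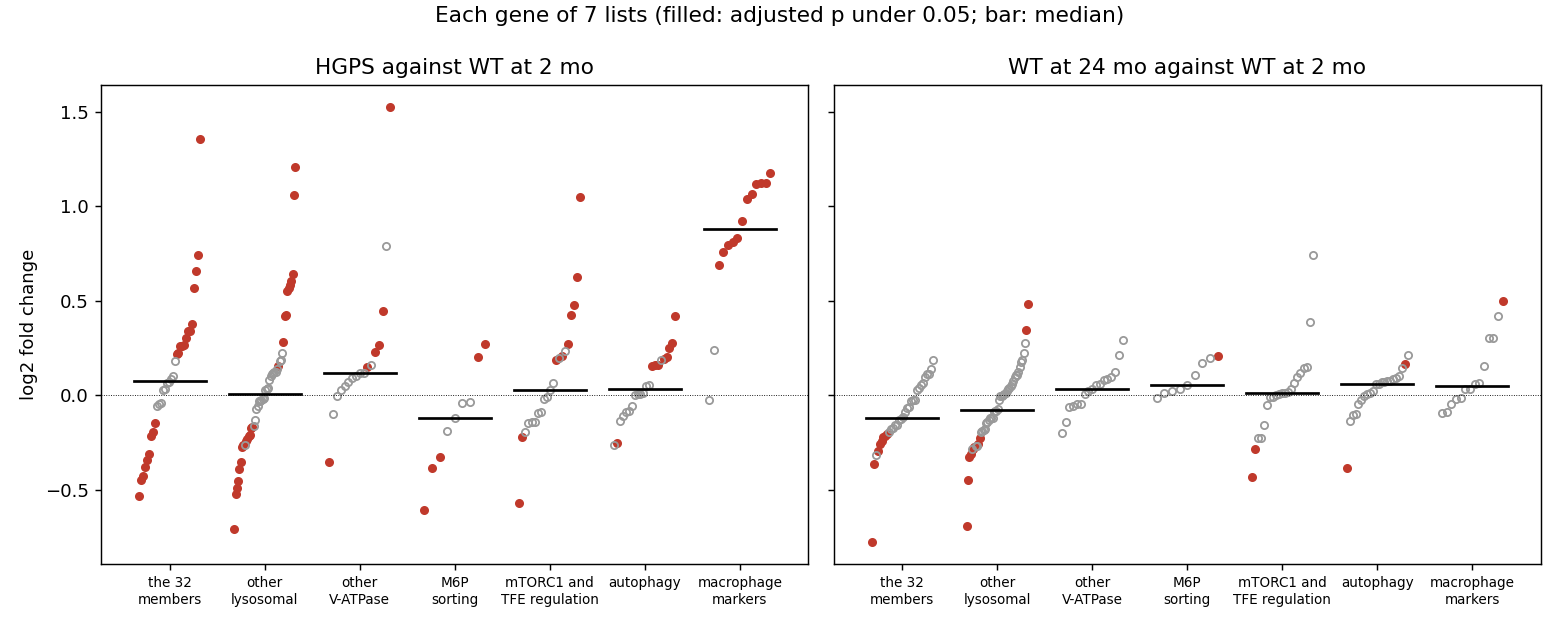
Log2 fold change of each tested gene of 7 lists in HGPS (left) and in WT at 24 mo (right), both against 2-mo WT, with filled points for an adjusted p under 0.05 and a bar at the median of each list. The macrophage markers have the highest median on the left (0.88), and on the right every list's median lies between -0.12 and 0.06.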

How the data were processed

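RNA of 18 whole descending aortas was measured, 6 per group, with groups and replicate numbers taken from the sample labels. RNA was depleted of ribosomal RNA and sequenced in pairs from stranded libraries. The authors quantified reads with salmon against GENCODE M23 (GRCm38.p6). Gene-level estimated counts from tximport were deposited as whole numbers, not normalized. Whether these were rounded is not stated. The submitters' processing notes also name mm10 and Bowtie 0.12.2, with no role given. The authors tested with DESeq2.

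Of 54281 genes, the 15210 that reached 10 counts in 6 or more mice were tested with edgeR 4.0.16 (TMM, glmQLFit and glmQLFTest, R 4.3.3) in 1 fit of the 3 groups with 15 residual degrees of freedom. Adjustment for multiple testing was by Benjamini-Hochberg across these genes. Standard errors were obtained as the size of the log2 fold change over the square root of the F statistic. CPM use TMM library sizes, and log2 CPM a prior count of 2. Levels per kilobase use 1 principal transcript per gene in GENCODE M21, in which 54107 of the identifiers were found. The fit was also run on simulated counts, which does not check the calls made on these mice.

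The 33 genes and all lists were chosen with earlier results of these data known. Values mouse by mouse are given for genes past the study's cut-offs in a comparison with 2-mo WT and for the MiT/TFE factors, and from each other list up to 3 rises and 3 falls are named for the comparisons with 2-mo WT. Npc2 and Ctsb in the plot of CPM by mouse, and the genes whose calls turned on 1 mouse, were picked after their values were seen. Per the annotation 14 of the 33 genes overlap another gene. On the same strand, reads could be split between Ctsd and Gm49369 (0 to 96 counts per mouse) and between Glb1 and Tmppe (79 to 179 counts per mouse). Mice are separate animals, and same-numbered mice of different groups were no pairs (correlation of their deviations -0.162 to 0.172 over 18 pairs). The alternatives were DESeq2 1.42.0, RLE and upper-quartile factors, no or a stricter count filter, the replicate number as a block, 2 groups alone, marker scores as covariates and each mouse left out. Precision was limited by 6 mice per group. The genes at the lowest levels, such as Atp6v0d2, had too few counts to test. The values of 1 gene of the other lysosomal list are not reported here.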

Additional observations from a re-analysis of the deposited data

Results flagged for a closer look

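In 96 checks, 1 for each of the 32 tested genes in each group, 6 had a mouse far from the other 5 of its group. Chance gives this in about 1 of 20 groups. In 2-mo WT, mouse 5 was highest for Ctsa at 207.74 CPM (the other 5 at 186.33 to 193.02) and for Glb1 at 53.205 CPM (44.15 to 47.213). In the same group, mouse 1 was lowest for Npc1 at 61.192 CPM (71.813 to 73.952) and for Atp6v1a at 204.19 CPM (231.64 to 246.33). In HGPS, mouse 3 was highest for Mcoln1 at 15.311 CPM (12.177 to 13.085). In 24-mo WT, mouse 1 was lowest for Lamp2 at 206.73 CPM (244.77 to 257.85).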

How the results depend on the processing

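With RLE factors or DESeq2, all 96 calls (32 genes in 3 comparisons) at an adjusted p under 0.05 stood as in the main fit. Over every alternative, 2592 gene values were compared. Of these, 2460 kept their side of the threshold, among them 35 uncalled values that changed sign. A further 118 lost the call, 11 gained it and 3 that had passed changed sign. Those 3 came with the macrophage score as a covariate: Ctss (-0.0207) and Ctsh (-0.0546) in HGPS against 2-mo WT and Hexa (-0.0139) in HGPS against 24-mo WT.

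The macrophage score also cut the lysosomal genes called in HGPS against 2-mo WT from 22 to 8, while calls over all genes went from 43.2% to 13.5%. At the study's cut-offs it cut the lysosomal genes from 3 to 1 (Glb1, which is none of the main 3), and it moved their median from 0.0785 to -0.0597. In HGPS against 24-mo WT it left 12 of 24 calls, 2 of 4 at the cut-offs and a median of 0.0831. Calls over all genes went from 47.3% to 21.4% there. With the brown fat and skeletal muscle scores, 14, 15 and 2 genes were called in HGPS against 2-mo WT, HGPS against 24-mo WT and 24-mo against 2-mo WT, and the first median was 0.18. Over all genes that fit called 21.2%, 24% and 7.53%, against 43.2%, 47.3% and 11.7% in the main fit. With no count filter, where 28882 genes were tested, 5 were called at 24 mo against 2 mo (8 in the main fit). The share of all genes called there was 4.98%, against 11.7% in the main fit. The cause of these moves was not tested.

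Leaving out 1 mouse gave 20 to 22 calls in HGPS against 2-mo WT (2 to 4 at the cut-offs, median 0.05 to 0.11), 21 to 24 in HGPS against 24-mo WT (3 to 5, median 0.21 to 0.31) and 6 to 11 at 24 mo against 2 mo (0 to 1, median -0.15 to -0.08). With the replicate number as a block, 21, 22 and 7 genes were called, and Ctsk at 24 mo no longer met the cut-offs, which left 0 there. Only 2 of the 18 same-numbered pairs of mice correlated over 0.1, and 3 correlated best with their own number. Precision was limited by 6 mice per group and the spread of Ctss.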
